A study of Mus musculus with 18 samples.

Results

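Wdfy1, Nnt, Gabra2 and Glo1 were examined on every array of a study of mouse brain, together with the genes that lie next to them and the genes of their pathways. They were grouped because each is known to vary between inbred mouse strains or substrains in sequence, copy number or RNA level. All 17 probe sets whose platform symbol is one of these genes were included, of 45037 non-control probe sets in the table, and they comprised 5 for Wdfy1, 3 for Nnt, 5 for Gabra2 and 4 for Glo1. Of these, 13 passed the filter on low signal that left 27022 probe sets for testing, namely 3 for Wdfy1, 2 for Nnt, 4 for Gabra2 and all 4 for Glo1.

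The 18 Affymetrix mouse 430 2.0 arrays measured RNA of whole brains from 8-week-old mice, whose strain the labels give as C57BL/6 for every genotype, with no substrain. The groups were ERalphaKO, labelled as lacking estrogen receptor alpha (gene Esr1), ERbetaKO, labelled as lacking estrogen receptor beta (gene Esr2), and wild type, with 3 female and 3 male arrays each. How the receptor genes were disrupted, and whether each array holds 1 animal, the labels do not say, so the spread given is that between these samples. The genes were chosen with their genotype differences known, so levels and differences between genotypes are given as a description, with no test.

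Wdfy1 encodes a FYVE and WD40 domain protein of early endosomes that brings the adaptor TRIF to Toll-like receptors 3 and 4. Nnt encodes the nicotinamide nucleotide transhydrogenase of the inner mitochondrial membrane, which uses the proton gradient to make NADPH for the removal of peroxides, and a deletion within it is carried by the C57BL/6J substrain. Gabra2 encodes the alpha2 subunit of the GABA-A receptor, the chloride channel of fast inhibition, and lies in a cluster with other subunit genes. Glo1 encodes glyoxalase 1, which with glutathione detoxifies methylglyoxal, a by-product of glycolysis, and some inbred strains carry extra copies of it.

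Gabra2 and Glo1 were the 2 members with an entry in the promoter table used, and their promoters are shown because the study compared estrogen receptor genotypes, and because Gabra2 had a different level in both knockout-labelled groups while Glo1 did not. Both were taken from RefSeq (GRCm38.p6, minus strand), at chr5:71095850-71096099 for Gabra2 and chr17:30612660-30612909 for Glo1, and span the 250 bases before the gene start, printed 5′ to 3′ in the direction of transcription. Capitals mark the CCAAT box and the GC box (GGGCGG), each searched on both strands.
Gabra2 promoter: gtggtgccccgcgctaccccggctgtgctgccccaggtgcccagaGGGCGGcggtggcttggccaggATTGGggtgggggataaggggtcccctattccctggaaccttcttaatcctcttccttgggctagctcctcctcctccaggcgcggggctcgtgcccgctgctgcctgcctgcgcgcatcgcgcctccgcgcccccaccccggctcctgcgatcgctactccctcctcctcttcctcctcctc
Glo1 promoter: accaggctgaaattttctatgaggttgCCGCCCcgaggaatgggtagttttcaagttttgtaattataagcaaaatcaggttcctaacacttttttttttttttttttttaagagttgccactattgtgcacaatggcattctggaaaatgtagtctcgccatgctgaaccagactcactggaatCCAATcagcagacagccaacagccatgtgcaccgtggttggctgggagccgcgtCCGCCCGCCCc
The estrogen response element, searched as GGTCANNNTGACC, and its half-site GGTCA, searched on both strands, had 0 matches in either window. Over all 32851 promoters of this length, 0.0639% held the full element and 35.2% the half-site. The Gabra2 window held 1 CCAAT box and 1 GC box and had a GC content of 70.0%, and the Glo1 window held 1 CCAAT box and 3 GC boxes, the last pair overlapping, at a GC content of 46.4%. A CCAAT box was present in 33.8% and a GC box in 32.7% of all promoters, and the median GC content was 52.4%. These matches describe letters in a window of 250 bases and say nothing of the binding of a factor.

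The single Esr2 probe set ran against its label, with 271 ± 98.0 in ERbetaKO-labelled arrays, 33.2 ± 22.6 in ERalphaKO-labelled arrays and 28.7 ± 11.4 in wild type arrays (signal, SD, n = 6 each), so every direction below rests on the labels. Esr1 was also highest in the group labelled as lacking it on 2 of its 3 probe sets. Probe set 1460591_at had 229.8 ± 52.3 in ERalphaKO-labelled arrays, 97.5 ± 55.8 in ERbetaKO-labelled arrays and 141 ± 50.6 in wild type arrays, and 1435663_at had 65.0 ± 20.6, 37.2 ± 11.3 and 38.6 ± 16.4 in the same order of genotypes. The third, 1421244_at, had 129 ± 21.6 in ERalphaKO-labelled arrays, 197 ± 24.6 in ERbetaKO-labelled arrays and 143 ± 35.9 in wild type arrays (signal, SD, n = 6 each). Probe set 1435663_at lay under the filter, with 41.5 to 86.8 in ERalphaKO-labelled and 10.2 to 55.5 in wild type arrays, which overlapped. On 1460591_at these ranges also overlapped, at 178 to 318 and 69.9 to 205. Esr2 signals were low in ERalphaKO-labelled and wild type arrays, at most 78.2 and 50.8, against 160.4 to 407 in ERbetaKO-labelled arrays. Averaged over all arrays, the Esr2 probe set also lay under the filter. Where the Esr1 and Esr2 probe sets lie relative to the disrupted parts is not known here, so their signals may check nothing. The cerebellar Purkinje cell gene Pcp2 ranged from 117 to 10790, reaching 500 on 4 ERalphaKO-labelled arrays, 3 ERbetaKO-labelled and 4 wild type arrays, and Gh, a pituitary gene, spanned 67.0 to 19903. The signal ratio of the Actb probe sets at the 3′ and 5′ ends, a measure of RNA integrity that is higher for less intact RNA, was 1.28 ± 0.0786 in ERalphaKO-labelled arrays, 1.48 ± 0.182 in ERbetaKO-labelled arrays and 1.20 ± 0.0209 in wild type arrays (SD, n = 6 each). Correlations over all probe sets were 0.935 to 0.983 between arrays of 1 group and 0.928 to 0.977 between arrays of different groups.

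Wdfy1 was lower than wild type in both knockout-labelled groups. On its brightest probe set, 1435588_at, signals were 316, 265 and 314 in ERalphaKO-labelled females and 359, 419 and 305 in ERalphaKO-labelled males. They were 511, 176 and 228 in ERbetaKO-labelled females and 577, 202 and 157 in ERbetaKO-labelled males. Wild type females had 883, 875 and 788, and wild type males had 1184, 865 and 1087. Every ERalphaKO-labelled and ERbetaKO-labelled value lay below every wild type value, and ERbetaKO-labelled female 1 and male 1 stood well above the other 4 arrays of their genotype. The means were 329.8 ± 53.1 in ERalphaKO-labelled arrays, 308 ± 185 in ERbetaKO-labelled arrays and 947 ± 153 in wild type arrays (SD, n = 6 each). Mean signal was thus 34.8% of wild type in ERalphaKO-labelled arrays and 32.6% in ERbetaKO-labelled arrays, and on the scale of log2(signal + 63.63) the differences from wild type were -1.36 ± 0.23 and -1.56 ± 0.23 (SE).

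**Figure D1:**
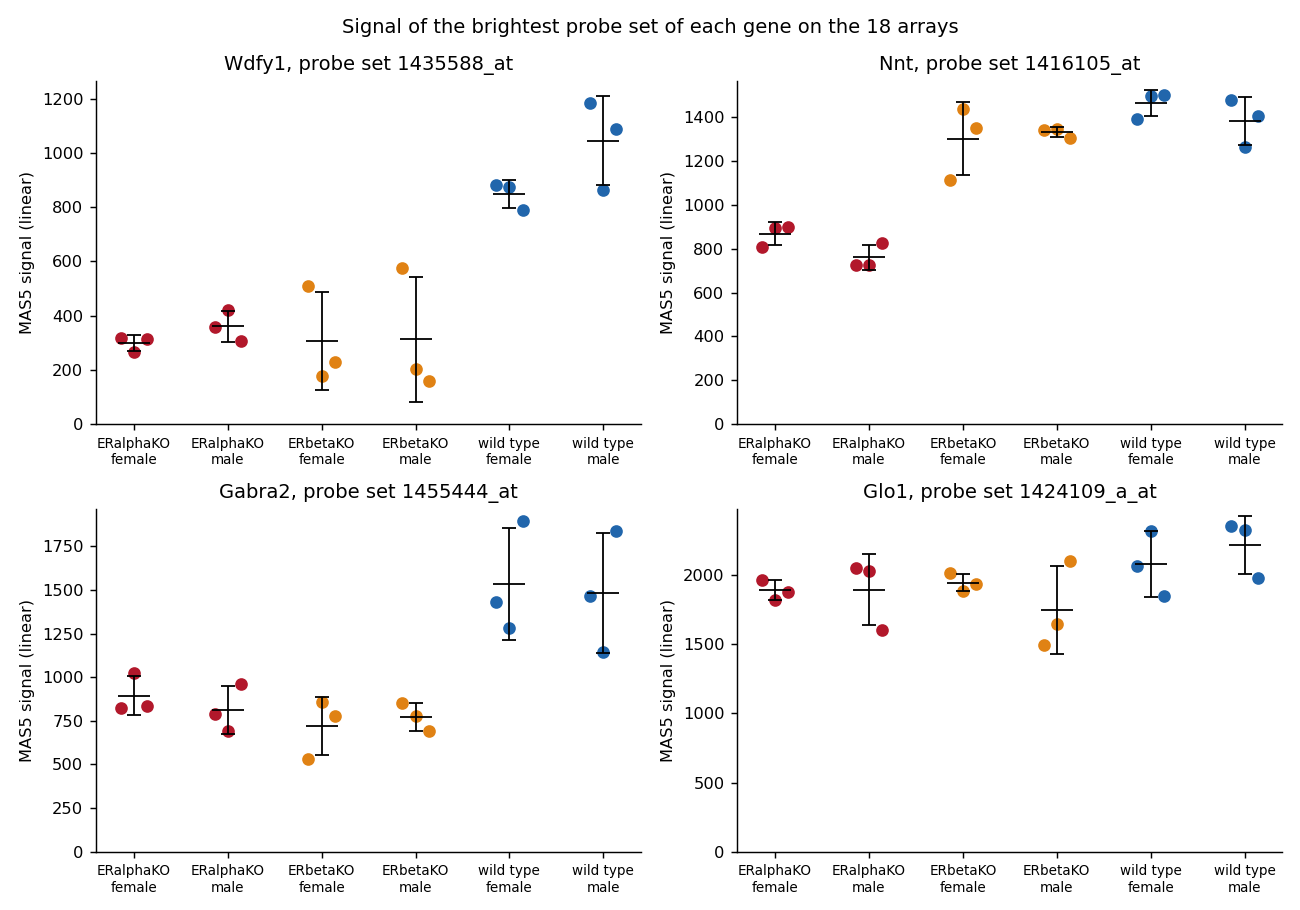
MAS5 signal (linear, y axis) of the brightest probe set of Wdfy1, Nnt, Gabra2 and Glo1 in the 6 groups of genotype and sex (x axis); points are arrays, horizontal bars the means and vertical bars the SD (n = 3). Wdfy1 and Gabra2 lay below every wild type array in both knockout-labelled groups, Nnt in ERalphaKO-labelled arrays alone, and the Glo1 groups overlapped.

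The other bright probe sets of Wdfy1 gave the same picture with less spread. Probe set 1437358_at had 326, 339, 281, 333, 295 and 339 in ERalphaKO-labelled arrays (3 females, then 3 males), 459, 307, 283, 393, 243 and 229 in ERbetaKO-labelled arrays, and 723, 878, 719, 715, 699 and 677 in wild type arrays. Both knockout-labelled means were 43.4% of the wild type mean, at log2 differences of -1.06 ± 0.12 for ERalphaKO-labelled arrays and -1.09 ± 0.12 for ERbetaKO-labelled arrays (SE). Probe set 1424749_at had means of 214 ± 23.4 in ERalphaKO-labelled arrays, 242 ± 32.9 in ERbetaKO-labelled arrays and 450.3 ± 47.4 in wild type arrays (SD, n = 6 each), with differences of -0.89 ± 0.09 and -0.75 ± 0.09 (SE). On all 3 probe sets the highest ERbetaKO-labelled arrays were female 1 and male 1, at 459 and 393 on 1437358_at and at 269 and 293 on 1424749_at, and both were below all wild type arrays. Their Actb ratios of 1.34 and 1.36 were the lowest of the ERbetaKO-labelled arrays, whose others had 1.44 to 1.84. Without these 2 arrays, an alternative chosen after the data were seen, the ERbetaKO-labelled difference of 1435588_at was -1.99, and it was -0.85 once the Actb ratio entered as a covariate. The Actb ratios of all ERbetaKO-labelled arrays, 1.34 to 1.84, lay above those of all wild type arrays, 1.17 to 1.23. The covariate therefore cannot tell RNA integrity and genotype apart in any ERbetaKO-labelled difference from wild type. The part of RNA quality in the result was not tested further. The remaining Wdfy1 probe sets lay under the filter. Probe set 1453426_a_at averaged 18.1 in ERalphaKO-labelled arrays, 33.1 in ERbetaKO-labelled arrays and 59.1 in wild type arrays, and 1447543_at averaged 139, 112 and 101 in the same order of genotypes, with overlapping ranges.

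Nnt was lower than wild type in ERalphaKO-labelled arrays, while ERbetaKO-labelled arrays overlapped wild type. On probe set 1416105_at, signals were 808, 895 and 901 in ERalphaKO-labelled females and 726, 727 and 828 in ERalphaKO-labelled males. They were 1115, 1439 and 1352 in ERbetaKO-labelled females and 1343, 1346 and 1306 in ERbetaKO-labelled males, against 1394, 1497 and 1500 in wild type females and 1477, 1262 and 1406 in wild type males. All ERalphaKO-labelled values lay below all ERbetaKO-labelled and wild type values, and the ERbetaKO-labelled and wild type ranges overlapped. Mean signal in ERalphaKO-labelled arrays was 57.2% of wild type (log2 difference -0.76 ± 0.07, SE), that in ERbetaKO-labelled arrays 92.6% (-0.11 ± 0.07), and the ERalphaKO minus ERbetaKO difference was -0.65 ± 0.07.

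Probe set 1456573_x_at of Nnt had 512, 548, 629, 524, 549 and 536 in ERalphaKO-labelled arrays (3 females, then 3 males), 937, 857, 886, 976, 1044 and 1196 in ERbetaKO-labelled arrays, and 953, 904, 949, 1040, 906 and 1030 in wild type arrays. The gap between the highest ERalphaKO-labelled value, 629, and the lowest of the 12 others, 857, was wider than the whole ERalphaKO-labelled range. The log2 difference was -0.74 ± 0.07 in ERalphaKO-labelled arrays and 0.02 ± 0.07 in ERbetaKO-labelled arrays (SE). The suffix x marks a probe set whose probes may also bind other transcripts. The third Nnt probe set, 1432608_at, was under the filter and averaged 55.7 in ERalphaKO-labelled arrays, 87.7 in ERbetaKO-labelled arrays and 78.9 in wild type arrays, with ERalphaKO-labelled male 3, at 91.2, inside the range of the others. On the 2 tested probe sets of Nnt, signal remained well above the filter in every ERalphaKO-labelled array.

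Gabra2 was lower than wild type in both knockout-labelled groups. On probe set 1455444_at, signals were 826, 1026 and 833 in ERalphaKO-labelled females and 787, 692 and 963 in ERalphaKO-labelled males. ERbetaKO-labelled females had 534, 855 and 775 and ERbetaKO-labelled males had 852, 779 and 692, against 1429, 1282 and 1897 in wild type females and 1464, 1147 and 1837 in wild type males. Every knockout-labelled array, the highest being ERalphaKO-labelled female 2 at 1026, was below every wild type array, the lowest being male 2 at 1147. Mean signal was 56.6% of wild type in ERalphaKO-labelled arrays (log2 difference -0.77 ± 0.13, SE) and 49.5% in ERbetaKO-labelled arrays (-0.95 ± 0.13). The ranges of the 2 knockout-labelled groups overlapped.

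The Gabra2 probe sets differed in size. Probe set 1421738_at averaged 579 ± 119.6 in ERalphaKO-labelled arrays, 399 ± 72.2 in ERbetaKO-labelled arrays and 1189 ± 173 in wild type arrays (SD, n = 6 each), and its differences from wild type, -0.97 ± 0.13 in ERalphaKO-labelled arrays and -1.44 ± 0.13 in ERbetaKO-labelled arrays (SE), were apart by 0.47 ± 0.13. Probe set 1443865_at averaged 409.9 ± 55.3 in ERalphaKO-labelled arrays, 429 ± 76.2 in ERbetaKO-labelled arrays and 803 ± 193 in wild type arrays (SD, n = 6 each), and 1 ERbetaKO-labelled array at 523 lay above the lowest wild type array at 514. Probe set 1449807_x_at, close to the filter, had -0.38 ± 0.18 in ERalphaKO-labelled arrays and -0.07 ± 0.18 in ERbetaKO-labelled arrays (SE), with overlapping values. Probe set 1420299_at was under the filter, with means of 9.63 in ERalphaKO-labelled arrays, 14.8 in ERbetaKO-labelled arrays and 12.4 in wild type arrays.

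**Figure D2:**
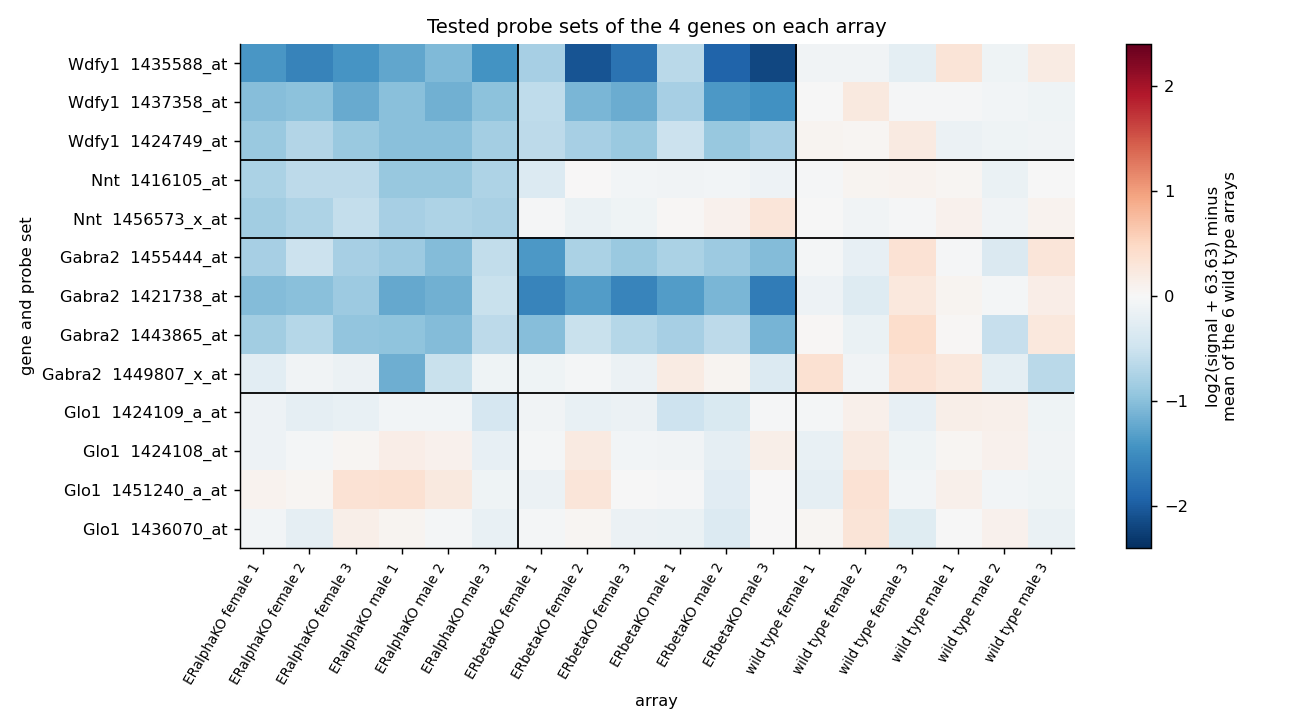
Heat map of the 13 tested probe sets (rows, grouped by gene) on the 18 arrays (columns, ERalphaKO-labelled left, then ERbetaKO-labelled, then wild type); colour is log2(signal + 63.63) minus the mean of the 6 wild type arrays. Blue fills the Wdfy1 rows and the brighter Gabra2 rows in both knockout-labelled groups, and the Nnt rows in ERalphaKO-labelled arrays alone, while the Glo1 rows stay pale.

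Glo1 showed no separation of the genotypes on any of its 4 probe sets. The brightest, 1424109_a_at, had 1968, 1823, 1880, 2055, 2032 and 1600 in ERalphaKO-labelled arrays (3 females, then 3 males), 2014, 1889, 1936, 1495, 1648 and 2104 in ERbetaKO-labelled arrays, and 2065, 2323, 1852, 2353, 2330 and 1978 in wild type arrays. The groups overlapped, with means of 1893 ± 169 in ERalphaKO-labelled arrays, 1848 ± 231 in ERbetaKO-labelled arrays and 2150 ± 214 in wild type arrays (SD, n = 6 each). Its log2 differences from wild type were -0.18 ± 0.09 in ERalphaKO-labelled arrays and -0.22 ± 0.09 in ERbetaKO-labelled arrays (SE). Over the other 3 Glo1 probe sets they were -0.01, 0.16 and -0.05 in ERalphaKO-labelled arrays and -0.01, -0.02 and -0.10 in ERbetaKO-labelled arrays.

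**Figure D3:**
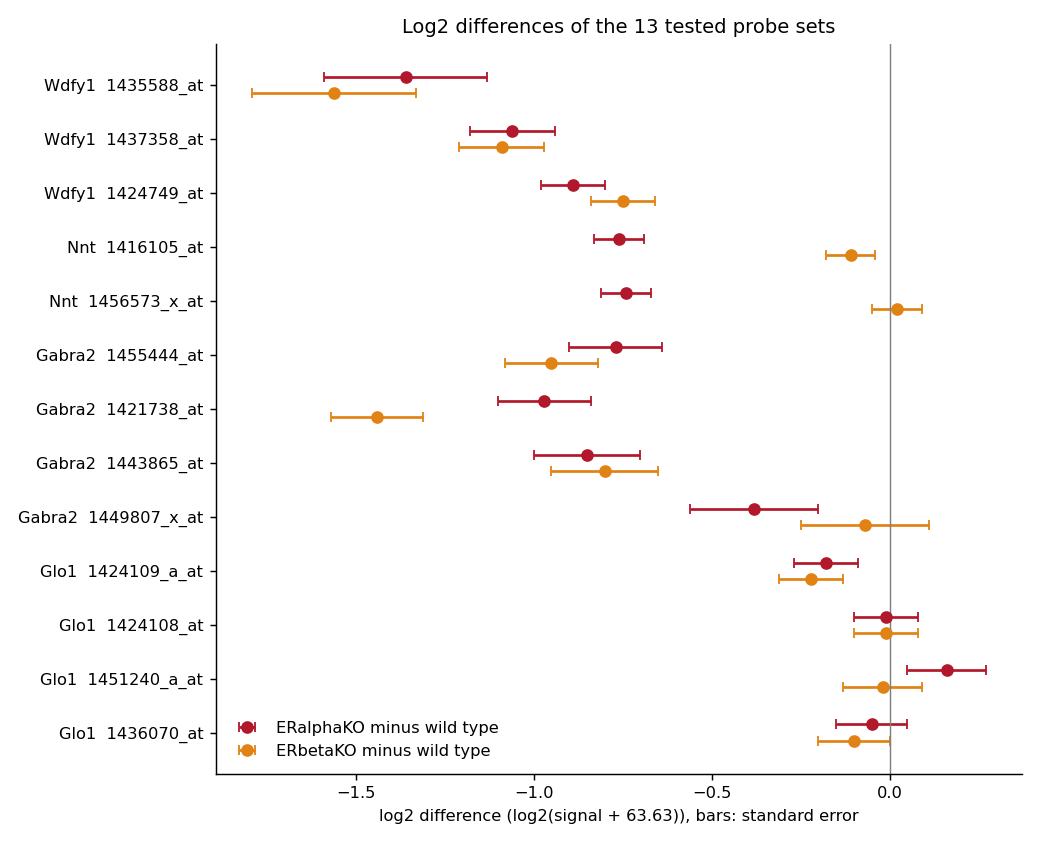
Log2 difference from wild type (x axis, log2(signal + 63.63), bars are standard errors) of each tested probe set (y axis, grouped by gene), ERalphaKO-labelled and ERbetaKO-labelled in separate colours. The 3 Wdfy1 probe sets were at -0.75 or lower in both, and those of Nnt were at -0.76 and -0.74 in ERalphaKO-labelled arrays and at -0.11 and 0.02 in ERbetaKO-labelled arrays.

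Over all 13 tested probe sets, the 6 ERalphaKO-labelled values lay wholly below the 6 wild type values for 8, and this held for 2.14% of all 27022 probe sets tested. They comprised 3 of Wdfy1, 2 of Nnt and 3 of Gabra2. For ERbetaKO-labelled arrays it was 5 of 13, against 1.81% of all, 3 of Wdfy1 and 2 of Gabra2. For ERalphaKO-labelled against ERbetaKO-labelled arrays it was 2 of 13, both of Nnt, against 3.32% of all. Since the genes were chosen on these contrasts, nothing is read from these counts. Both knockout-labelled groups were compared with the same wild type arrays.

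Ordered by mean signal of the brightest probe set, from the lowest, Wdfy1 had 298 in ERalphaKO-labelled females, 305 in ERbetaKO-labelled females, 312 in ERbetaKO-labelled males and 361 in ERalphaKO-labelled males, each overlapping the next, and then, apart from them, 849 in wild type females and 1045 in wild type males, whose ranges overlapped. The other tested Wdfy1 probe sets had the reverse order, with wild type females wholly above wild type males. Their means were 773 and 697 on 1437358_at, and 488 and 412 on 1424749_at. For Nnt the lowest were ERalphaKO-labelled males at 760.4 and ERalphaKO-labelled females at 868, which overlapped. They were followed, apart from them, by ERbetaKO-labelled females at 1302, ERbetaKO-labelled males at 1332, wild type males at 1382 and wild type females at 1464, each overlapping the next. For Gabra2 the order was ERbetaKO-labelled females at 721, ERbetaKO-labelled males at 774, ERalphaKO-labelled males at 814 and ERalphaKO-labelled females at 895, each overlapping the next. Apart from these, wild type males at 1483 and wild type females at 1536 overlapped. For Glo1 every neighbouring pair overlapped, the lowest group being ERbetaKO-labelled males at 1749 and the highest wild type males at 2220.

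No probe set of these genes differed between the sexes by the test. This comparison did not enter the choice of the genes. Of the 13 probe sets, 0 differed between females and males in limma over all 27022 probe sets, of which 10, or 0.0370%, did, and 0 of 13 reached an unadjusted p under 0.05. The female minus male differences, averaged over the genotypes, were between -0.15 and 0.26 on the log2 scale, and the smallest limma adjusted p was 0.958. The smallest p belonged to Gabra2 1449807_x_at, with a difference of 0.26 ± 0.14 (SE, limma unadjusted p = 0.0861). The interaction test called no dependence of the genotype differences on sex. For ERalphaKO-labelled arrays 0 of 13 were called and 0 had an unadjusted p under 0.05 (limma smallest adjusted p = 0.969). The same held for ERbetaKO-labelled arrays (limma smallest adjusted p = 1.000). Of all 27022 probe sets, 1340 had an unadjusted limma p under 0.05 between the sexes. In the interaction tests it was 1547 for ERalphaKO-labelled and 970 for ERbetaKO-labelled arrays. Interaction estimates were between -0.16 and 0.14 for ERalphaKO-labelled arrays and between -0.50 and 0.31 for ERbetaKO-labelled arrays, and 0% of all probe sets passed either test. For ERbetaKO-labelled arrays the estimates were 0.31 ± 0.46 for Wdfy1 1435588_at and -0.50 ± 0.35 for Gabra2 1449807_x_at (SE). With 3 arrays per group, a sizeable dependence on sex could go uncalled. In each sex alone the ERalphaKO-labelled difference of Nnt 1416105_at was -0.71 ± 0.10 in females and -0.81 ± 0.10 in males (SE), and that of Gabra2 1455444_at was -0.73 ± 0.19 in females and -0.80 ± 0.19 in males.

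The signal of the brightest Gabra2 probe set ran, on average, opposite to that of Pcp2, the marker of cerebellum. In every genotype, 1455444_at averaged higher on arrays with a Pcp2 signal under 500, whose means were 994 in ERalphaKO-labelled arrays, 827 in ERbetaKO-labelled arrays and 1867 in wild type arrays, against 784, 668 and 1331 on arrays with more Pcp2 in the same order of genotypes. For ERbetaKO-labelled arrays these subsets overlapped at 775 and 779. Probe set 1443865_at also averaged higher at low Pcp2 in every genotype, while 1421738_at had 403 at low and 396 at higher Pcp2 in ERbetaKO-labelled arrays, and 1449807_x_at ran the other way in wild type arrays, at 152 and 177. The brightest Nnt probe set also averaged higher at low Pcp2 (862, 1378 and 1453 against 790.5, 1256 and 1407, same genotype order). Its other tested probe set ran the other way in both knockout-labelled groups. The brightest Glo1 probe set averaged lower at low Pcp2 (1711, 1773 and 1915 against 1984, 1922 and 2268). The other Glo1 probe sets did so in ERalphaKO-labelled and wild type arrays, but not in ERbetaKO-labelled arrays. On the 11 arrays with a Pcp2 signal of 500 or more, log2 differences from wild type were taken for the brightest probe sets. They were -0.71 in ERalphaKO-labelled arrays and -1.01 in ERbetaKO-labelled arrays for Gabra2, and -1.28 and -1.43 for Wdfy1. Those of Nnt were -0.79 and -0.20. Whether fewer cells of a type or less RNA per cell lies behind a lower signal cannot be told apart in whole brain.

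**Figure D4:**
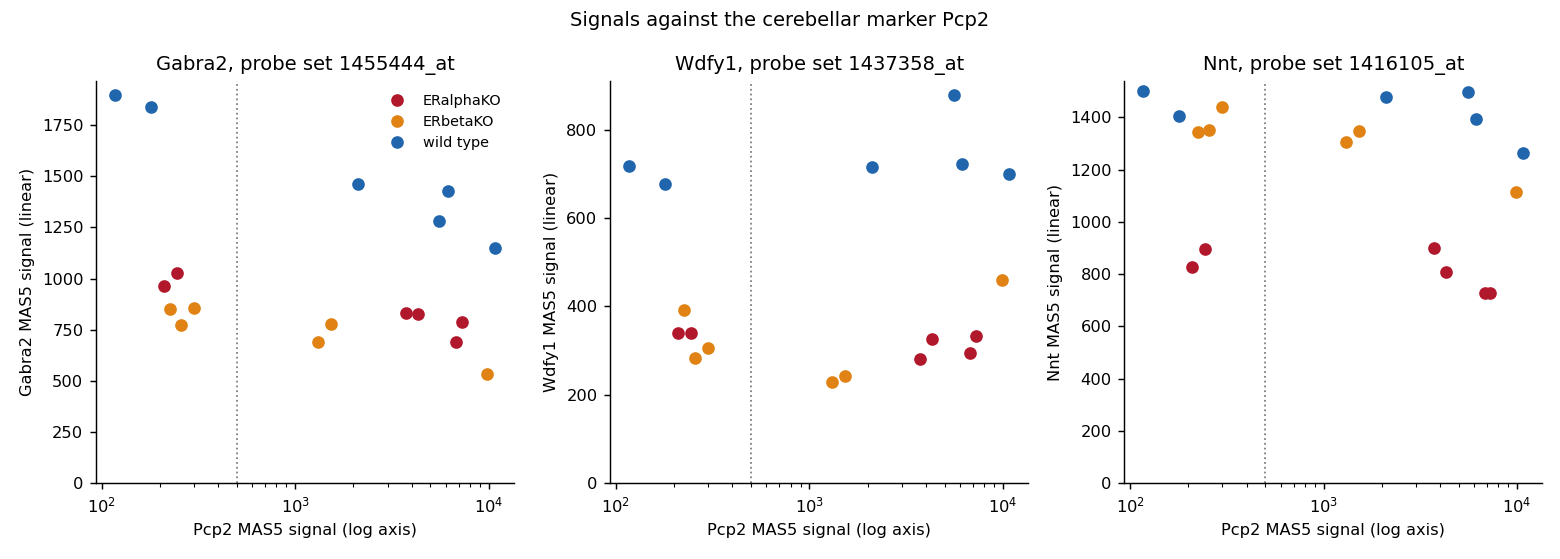
MAS5 signal (linear, y axes) of Gabra2 (1455444_at), Wdfy1 (1437358_at, not its brightest probe set) and Nnt (1416105_at) against the Pcp2 signal (log x axis). Points are the 18 arrays, colours mark genotypes and the dotted line marks a Pcp2 signal of 500. Within each genotype the Gabra2 points were on average higher at low Pcp2, and on both sides of the line the wild type points lay above those of the knockout-labelled groups for Gabra2 and Wdfy1.

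Of 24 tested markers of cell types and tissues in 9 lists, 2 passed in each comparison, or 8.33%, near the share of all probe sets (9.07% in ERalphaKO-labelled arrays and 7.82% in ERbetaKO-labelled arrays). These calls lay in the lists for neurons, astrocytes and microglia, and the called markers are named for that reason. The 15 tested markers of oligodendrocytes, cerebellum, pituitary, choroid plexus, blood and liver held 0 limma calls. Of these, 1 in ERalphaKO-labelled arrays and 1 in ERbetaKO-labelled arrays had an unadjusted limma p under 0.05. Over all 27022 probe sets tested, 6706 in ERalphaKO-labelled arrays and 7060 in ERbetaKO-labelled arrays had such a p. The cerebellar marker Pcp2 and the pituitary marker Gh varied so widely that large differences could go uncalled. Their log2 differences were 0.16 ± 1.23 and -2.02 ± 1.40 in ERalphaKO-labelled arrays, and -0.94 ± 1.23 and -2.08 ± 1.40 in ERbetaKO-labelled arrays (SE). The summed signal of the 3 neuronal markers Snap25, Syt1 and Rbfox3 was 23454 to 35004 in ERalphaKO-labelled arrays, 30385 to 44569 in ERbetaKO-labelled arrays and 32495 to 44800 in wild type arrays. Of these 3, Syt1 passed in ERalphaKO-labelled arrays (-0.38 ± 0.12, SE, limma adjusted p = 0.0482). Snap25 and Rbfox3 were lower there by similar amounts, at -0.34 and -0.37 (limma adjusted p = 0.0621 and 0.0543). All 3 had an unadjusted limma p under 0.05 in ERalphaKO-labelled arrays. In ERbetaKO-labelled arrays 0 passed, and 0 had an unadjusted limma p under 0.05. The summed signal of the 3 astrocyte markers Gfap, Aqp4 and Aldh1l1 was 5541 to 8808 in ERalphaKO-labelled arrays, 3680 to 6240 in ERbetaKO-labelled arrays and 6486 to 8643 in wild type arrays. Gfap passed in ERbetaKO-labelled arrays (-1.23 ± 0.14, SE, limma adjusted p = 1.43e-04). Aqp4 and Aldh1l1 were also lower there, at -0.53 and -0.27 (limma adjusted p = 0.0847 and 0.0671). All 3 had an unadjusted limma p under 0.05 in ERbetaKO-labelled arrays, against 1 of 3 in ERalphaKO-labelled arrays. The summed signal of the 3 microglia markers Cx3cr1, C1qa and Csf1r was 4770 to 6231 in ERalphaKO-labelled arrays, 4541 to 6620 in ERbetaKO-labelled arrays and 5046 to 7849 in wild type arrays. C1qa fell in ERalphaKO-labelled arrays (-0.53 ± 0.12, SE, limma adjusted p = 0.0144), where Cx3cr1 had 0.12 and Csf1r -0.17. Cx3cr1 fell in ERbetaKO-labelled arrays (-0.52 ± 0.13, SE, limma adjusted p = 0.0269), where C1qa had -0.38 and Csf1r -0.01. The part of any of these in the levels of Wdfy1, Nnt and Gabra2 was not tested.

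The genes next to the members were then compared, with the 5 nearest tested genes on each side of a member in the order of the RefSeq annotation, 40 in all, each represented by its brightest tested probe set. On these probe sets, none of the 10 next to Wdfy1 and none of the 10 next to Gabra2 passed the limma test in either comparison. In each comparison 1 of 10 next to Wdfy1 and 3 of 10 next to Gabra2 had an unadjusted limma p under 0.05. Of all 27022 probe sets tested, 6706 in ERalphaKO-labelled arrays and 7060 in ERbetaKO-labelled arrays had such a p. In ERalphaKO-labelled arrays 2 of 40 passed, against 9.07% of all probe sets tested, and in ERbetaKO-labelled arrays 1 of 40, against 7.82%. The split of all ERbetaKO-labelled calls into higher and lower depended on scaling, with 1143 higher and 970 lower in the signals as scaled by the authors and 363 higher and 2437 lower after median scaling. Among all 73 tested probe sets of these neighbours, a count chosen after the data were seen, 4 passed in each comparison, or 5.48%. The further calls were on probe sets of Hmgcs1, near Nnt, and Commd8, near Gabra2, both named after their values were seen. Hmgcs1, a synthase of the cholesterol pathway, rose on 2 of its 3 other probe sets, by 0.36 and 0.35 in ERalphaKO-labelled arrays (limma adjusted p = 0.0272 and 0.00141) and by 0.45 and 0.39 in ERbetaKO-labelled arrays (limma adjusted p = 0.0117 and 8.32e-04), while its brightest had -0.09 and 0.07. Commd8 rose in ERbetaKO-labelled arrays on its other probe set (0.45 ± 0.12, SE, limma adjusted p = 0.0286), while its brightest had 0.19.

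Gabra2 lies within a cluster of GABA-A receptor genes whose other tested members showed no call. Gabrg1, the gamma1 subunit and the nearest on 1 side, had a log2 difference of 0.23 in ERalphaKO-labelled arrays and -0.26 in ERbetaKO-labelled arrays (limma adjusted p = 0.441 and 0.351). Gabra4, the alpha4 subunit and the nearest on the other, had 0.03 in ERalphaKO-labelled arrays and 0.24 in ERbetaKO-labelled arrays. Gabrb1, the beta1 subunit, had 0.33 in ERalphaKO-labelled arrays (limma adjusted p = 0.103) and 0.06 in ERbetaKO-labelled arrays. Next to Wdfy1, the secretogranin gene Scg2 had 0.02 in ERalphaKO-labelled arrays and -0.31 in ERbetaKO-labelled arrays. Mrpl44, which encodes a mitochondrial ribosomal protein and whose annotated span overlaps that of Wdfy1, had -0.05 in ERalphaKO-labelled arrays and 0.06 in ERbetaKO-labelled arrays.

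**Figure D5:**
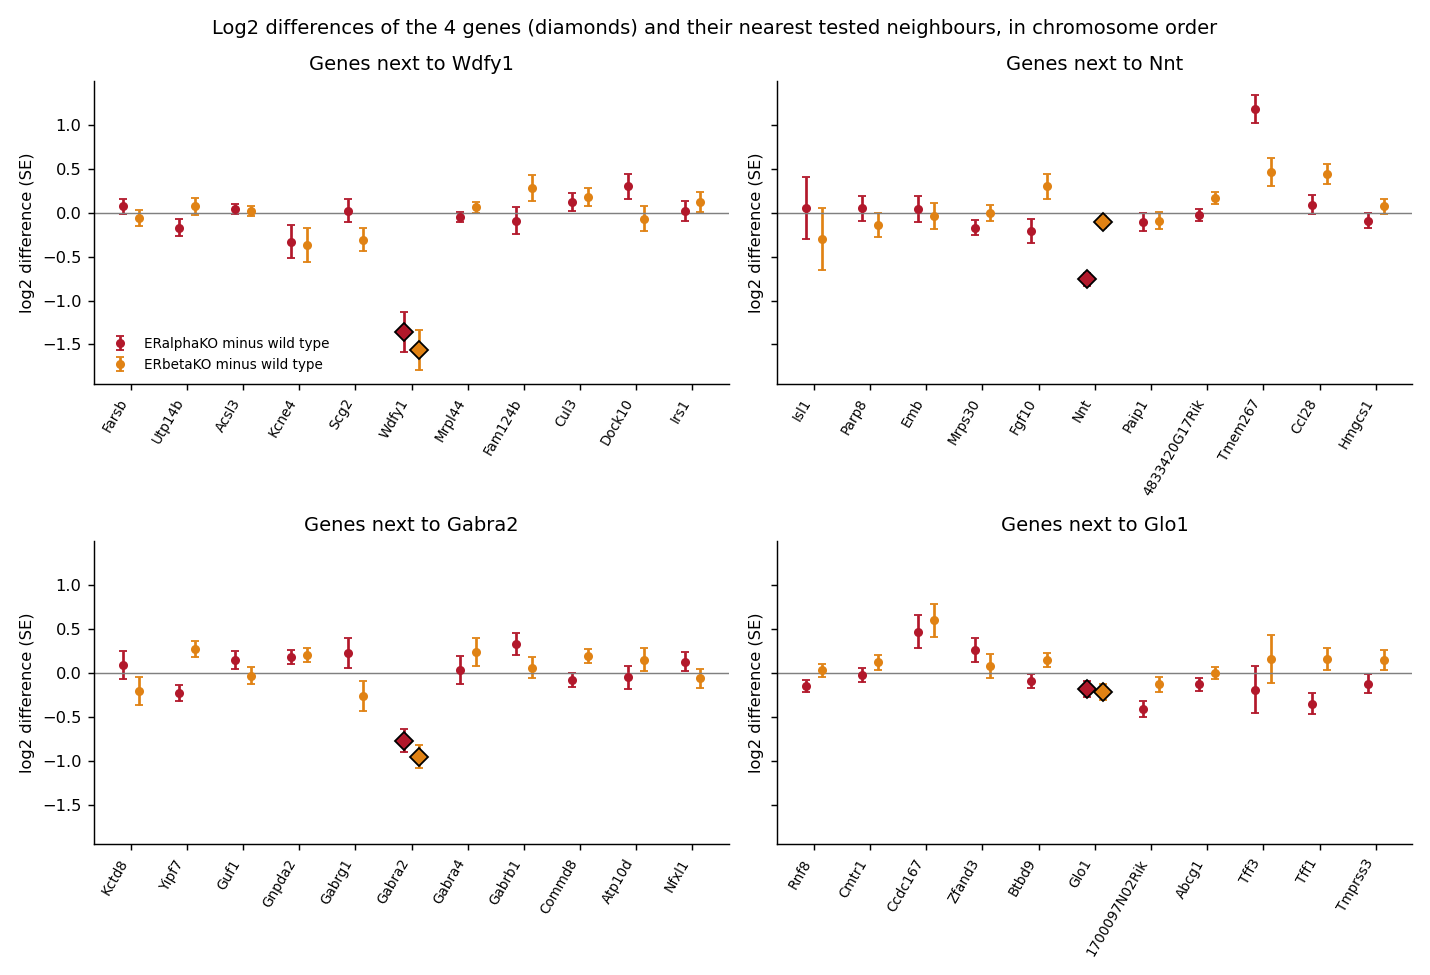
Log2 difference from wild type (y axis, bars are standard errors) of each member (diamonds) and of its 5 nearest tested genes on either side (circles, brightest tested probe set of each, x axis in chromosome order, evenly spaced), ERalphaKO-labelled and ERbetaKO-labelled in separate colours. Wdfy1 and Gabra2 stood below all 10 of their neighbours in both comparisons, and Tmem267, at 1.18, stood above the other neighbours of Nnt in ERalphaKO-labelled arrays.

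Near Nnt, Tmem267, a gene for a membrane protein 4 annotated genes away, rose in ERalphaKO-labelled arrays. Its signals were 516, 637, 599, 830.4, 732 and 597 in ERalphaKO-labelled arrays (3 females, then 3 males), 263, 589, 479, 294, 298 and 367 in ERbetaKO-labelled arrays, and 212, 321, 347, 275, 193 and 184 in wild type arrays. All ERalphaKO-labelled values lay above all wild type values (difference of 1.18 ± 0.16 on the log2 scale, SE, with a limma adjusted p of 3.88e-04), while ERbetaKO-labelled values overlapped both other genotypes (0.46 ± 0.16, limma adjusted p = 0.0735). Ccl28, which encodes a mucosal chemokine, rose in ERbetaKO-labelled arrays by 0.44 ± 0.11 (SE, limma adjusted p = 0.0215), to 437 ± 50.8 against 310.1 ± 67.2 in wild type arrays (signal, SD). That call was lost in 5 of 13 other settings, with a log2 difference of 0.32 under median scaling (limma adjusted p = 0.0568) and of 0.49 with the Actb covariate (limma adjusted p = 0.203). In the others the difference was not smaller, at 0.45 on the arrays with more Pcp2, 0.44 in the fit of only the groups compared and 0.44 without ERbetaKO-labelled female 1 and male 1. The nearest tested genes, Fgf10 and Paip1, had -0.21 and -0.11 in ERalphaKO-labelled arrays and 0.30 and -0.09 in ERbetaKO-labelled arrays. Next to Glo1, the transcript 1700097N02Rik fell in ERalphaKO-labelled arrays by 0.41 ± 0.09 (SE, limma adjusted p = 0.0135), with 133 ± 17.8 against 197 ± 25.6 in wild type arrays (signal, SD), a call lost on the 11 arrays with more Pcp2, where the difference was -0.43 (limma adjusted p = 0.120). Its probe set carries the suffix x, so its probes may bind other transcripts. Btbd9, on the other side of Glo1, had -0.09 in ERalphaKO-labelled arrays and 0.15 in ERbetaKO-labelled arrays.

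Of 74 listed genes, 60 of the members' pathways and 14 others that vary between mouse strains, 58 had a tested probe set, 49 and 9 of each kind. In ERalphaKO-labelled arrays 4 of 58, or 6.90%, passed against 9.07% of all probe sets, 1 higher and 3 lower, and in ERbetaKO-labelled arrays 6 of 58, or 10.3%, passed against 7.82% of all, all 6 lower. Without the 14 strain variant genes, the shares were 4 of 49, or 8.16%, in ERalphaKO-labelled arrays and 5 of 49, or 10.2%, in ERbetaKO-labelled arrays. All these shares were near the background.

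For Toll-like receptor signalling and the WDFY family, 11 of 17 genes were tested. In ERalphaKO-labelled arrays 1 rose, Wdfy3, a scaffold of selective autophagy (0.31 ± 0.09, SE, limma adjusted p = 0.0438). In ERbetaKO-labelled arrays 2 fell, Irf3, the transcription factor activated through TRIF (-0.32 ± 0.09, limma adjusted p = 0.0435), and the NF-kappaB subunit Rela (-0.23 ± 0.07, limma adjusted p = 0.0481). The call of Wdfy3 was kept in 9 of 13 other settings and in 5 of 18 fits that each left out 1 array, and those of Irf3 and Rela in 5 of 13 settings each and in 7 and 3 of 18 fits. The kinase Tbk1, which activates Irf3, had 0.21 in ERalphaKO-labelled arrays and 0.14 in ERbetaKO-labelled arrays, without passing. The list medians were 0.01 in ERalphaKO-labelled arrays and 0.07 in ERbetaKO-labelled arrays, and those of all tested probe sets 0.00 and 0.04.

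For mitochondrial NADPH and peroxide handling, 15 of 16 genes were tested, and Idh2 alone passed in each comparison. Idh2, the isocitrate dehydrogenase that is another source of mitochondrial NADPH beside Nnt, averaged 731 ± 109 in ERalphaKO-labelled arrays, 713 ± 92.0 in ERbetaKO-labelled arrays and 947 ± 55.5 in wild type arrays (signal, SD, n = 6 each). It fell by 0.36 ± 0.09 in ERalphaKO-labelled arrays (limma adjusted p = 0.0195) and by 0.39 ± 0.09 in ERbetaKO-labelled arrays (SE, limma adjusted p = 0.0163), the shared wild type arrays serving both. The call was lost on the arrays with more Pcp2 in both comparisons, at -0.44 in ERalphaKO-labelled arrays and -0.30 in ERbetaKO-labelled arrays, and with the Actb covariate in ERbetaKO-labelled arrays, at -0.34. Gpx1, Nadk2 and Gpx4, a peroxidase, an NAD kinase and another peroxidase, had -0.11, -0.06 and -0.10 in ERalphaKO-labelled arrays and -0.27, -0.24 and -0.17 in ERbetaKO-labelled arrays without passing. The medians were -0.06 in ERalphaKO-labelled arrays and -0.07 in ERbetaKO-labelled arrays.

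For the scaffold and trafficking of GABA-A receptors, 11 of 12 genes were tested. Gabarapl1, a homologue of the receptor-associated protein Gabarap, fell in ERalphaKO-labelled arrays (-0.40 ± 0.10, SE, limma adjusted p = 0.0228), and Gabarap fell in ERbetaKO-labelled arrays (-0.26 ± 0.07, limma adjusted p = 0.0348). Gabarapl1 kept its call in 9 of 13 other settings and in 14 of 18 fits with 1 array left out, and Gabarap in 7 of 13 and 11 of 18. The adhesion molecule Nlgn2 of inhibitory synapses had -0.28 in ERalphaKO-labelled arrays and -0.34 in ERbetaKO-labelled arrays, and the fusion ATPase Nsf had -0.22 and -0.01, without passing. The medians were -0.04 in ERalphaKO-labelled arrays and -0.09 in ERbetaKO-labelled arrays.

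For glyoxalases, aldehydes and glutathione, 12 of 15 genes were tested. Hagh, glyoxalase 2, which completes the reaction that Glo1 begins, fell in ERalphaKO-labelled arrays (-0.19 ± 0.06, SE, limma adjusted p = 0.0455), and the aldehyde dehydrogenase Aldh2 fell in ERbetaKO-labelled arrays (-0.53 ± 0.15, limma adjusted p = 0.0456). Both calls were kept in 6 of 13 other settings, and with 1 array left out in 2 of 18 fits for Hagh and 6 of 18 for Aldh2. The glycolytic enzyme Tpi1, whose substrates give rise to methylglyoxal, had -0.24 in ERalphaKO-labelled arrays and -0.06 in ERbetaKO-labelled arrays, and Park7 had -0.19 and -0.14, without passing. The medians were -0.09 in ERalphaKO-labelled arrays and -0.06 in ERbetaKO-labelled arrays.

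Of 14 other genes known to vary between mouse strains or substrains, 9 were tested, and 1 passed. This was Fgfbp3, a binding protein of fibroblast growth factors, which fell in ERbetaKO-labelled arrays (-0.31 ± 0.09, SE, limma adjusted p = 0.0460). Its call was kept in 6 of 13 other settings and in 3 of 18 fits with 1 array left out. Crb1, whose mutation is carried by the C57BL/6N substrain, had -0.32 ± 0.10 in ERalphaKO-labelled arrays (limma adjusted p = 0.0502) and 0.07 in ERbetaKO-labelled arrays. The potassium channel gene Kcnj10 had -0.25 in ERalphaKO-labelled arrays and -0.50 in ERbetaKO-labelled arrays, and the histocompatibility gene H2-D1 had -0.31 and -0.52, without passing. The medians were -0.14 in ERalphaKO-labelled arrays and -0.02 in ERbetaKO-labelled arrays.

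Across the 18 arrays, the genes whose log2 pattern was most like that of each member were named, as a description, since all points share their arrays and genotypes. Gabra2 was most like Ncs1, a neuronal calcium sensor (Pearson r = 0.949 over 18 arrays, and 0.838 after each group's mean was removed). Ncs1 averaged 2464 ± 276 in ERalphaKO-labelled arrays, 2294 ± 454 in ERbetaKO-labelled arrays and 4070 ± 850.3 in wild type arrays (signal, SD, n = 6 each). Znhit2 and Trim8 followed at r of 0.924 and 0.918, and at 0.797 and 0.770 within groups. Nnt was most like P2ry13, a purine receptor of microglia, at 0.906, then Nlrx1 and Fkbp1b at 0.891 and 0.869, which were 0.577, 0.687 and 0.585 within groups. Wdfy1 was most like Dctn2, a dynactin subunit, at 0.857, then Mrpl46 and Sdf4 at 0.848 and 0.846, which were only 0.529, 0.439 and 0.318 within groups. Glo1 was most like Car2, Gas6 and Fam234a at 0.884, 0.877 and 0.872, and at 0.834, 0.825 and 0.789 within groups. Between members, r was 0.719 for Wdfy1 with Gabra2 and -0.214 once group means were removed, 0.484 and 0.741 for Nnt with Gabra2, and 0.363 and -0.384 for Wdfy1 with Nnt. For Glo1, r was 0.221 and -0.731 with Gabra2, 0.429 and -0.222 with Wdfy1, and 0.157 and -0.403 with Nnt.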

How the data were processed

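Whole brain RNA was measured on 18 Affymetrix mouse 430 2.0 arrays. The authors deposited linear intensities, made with MAS5 per the submitters' processing notes, its version not given in the sources used here. No detection calls were used here, and no genome build was named for the table. On every array the 2% trimmed mean was 500.0. Of 45101 probe sets, 64 controls were left out. Platform symbols were updated through RefSeq (GRCm38.p6), which served for names, gene order and promoters.

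Log2 levels were computed with a pseudocount of 63.63 (25th percentile of non-control signals), which understates the change of weak signals. Probe sets with a mean log2 level under 7.58, the 40th percentile, were not tested. limma 3.58.1 (R 4.3.3) fitted 6 group means with an intensity trend, 12 residual degrees of freedom, Benjamini-Hochberg adjustment over 27022 probe sets and a threshold of 0.05. Genotype differences averaged the sexes. The fit was checked on simulated data. Precision is limited by the number of arrays.

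The 4 genes and all lists were chosen with earlier results of these data known. Named genes were all probe sets of the 4 genes, the 3 genes most correlated with each, called and nearest neighbours, up to 4 genes with the smallest adjusted p of each list, Esr1, Esr2, Pcp2, Gabra6 and Gh. Gabrb1, Hmgcs1 and Commd8 among the neighbours and the markers Syt1, Gfap, C1qa and Cx3cr1 were named after their values were seen. Each neighbour and list gene was represented by its brightest tested probe set. Alternatives were other pseudocounts, scalings, filters and variance models, a replicate block, left-out arrays, and other probe sets of a gene.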

Additional observations from a re-analysis of the deposited data

Results flagged for a closer look

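Of 60 groups of 6 arrays of a genotype, each for 1 probe set, 4 had an array far from the others. Chance gives about 1 in 20 groups, so this count was near that of chance. Wdfy1 1437358_at was 878 in wild type female 2, against 677 to 723 in the other wild type arrays. Nnt 1456573_x_at was 629 in ERalphaKO-labelled female 3, against 512 to 549 in the other ERalphaKO-labelled arrays. Gabra2 1420299_at, which lay under the filter, was 29.8 in ERalphaKO-labelled male 2, against 4.47 to 7.64 in the other ERalphaKO-labelled arrays, and 37.4 in wild type female 2, against 3.33 to 9.28 in the other wild type arrays.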

How the results depend on the processing

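No genotype difference of Wdfy1, Nnt or Gabra2 from wild type moved by more than the spread between replicates when any 1 array was left out. The Wdfy1 difference was -1.42 to -1.31 in ERalphaKO-labelled arrays and -1.80 to -1.41 in ERbetaKO-labelled arrays, and that of Gabra2 -0.85 to -0.69 and -1.03 to -0.86. Some differences moved on other tested probe sets. Wdfy1 had -0.89 in ERalphaKO-labelled arrays and -1.09 and -0.75 in ERbetaKO-labelled arrays, Nnt had 0.02 in ERbetaKO-labelled arrays and -0.77 between the knockout-labelled groups, and Gabra2 had -0.38 (1449807_x_at) in ERalphaKO-labelled arrays, -1.44 and -0.07 in ERbetaKO-labelled arrays, and 0.47 and -0.31 between them. Glo1 had -0.01 and 0.16 in ERalphaKO-labelled arrays and -0.01 and -0.02 in ERbetaKO-labelled arrays. Others did not move: in ERalphaKO-labelled arrays Wdfy1 had -1.06 on 1437358_at, Nnt -0.74, and Gabra2 -0.97 on 1421738_at and -0.85 on 1443865_at. In ERbetaKO-labelled arrays Gabra2 had -0.80 on 1443865_at, and Glo1 1436070_at had -0.05 and -0.10 in the 2 comparisons. With the Actb ratio as a covariate, Wdfy1 was -0.85 in ERbetaKO-labelled arrays and -0.29 in ERalphaKO minus ERbetaKO, and Nnt -0.25 in ERbetaKO-labelled arrays; with median scaling Nnt was -0.24 in ERbetaKO-labelled arrays and -0.54 between them. The sex tests gave 0 calls among the members under every alternative run. Called neighbours in ERalphaKO-labelled arrays (2) became 1 with the 60th percentile filter and on arrays with more Pcp2, 5 with array weights, 4 with only the groups compared and 4 over every probe set. In ERbetaKO-labelled arrays (1) they became 0 with median scaling, on arrays with more Pcp2, with the Actb ratio and with only the groups compared, 3 with array weights, 2 without ERbetaKO-labelled female 1 and male 1, and 4 over every probe set. Called genes of the lists in ERalphaKO-labelled arrays (4) became 2 with median scaling or no filter, 8 with array weights and 0 on arrays with more Pcp2. In ERbetaKO-labelled arrays (6) they became 3 with quantile normalization, 12 with median scaling, 1 with no filter, 2 without the intensity trend, 2 on arrays with more Pcp2, 0 with the Actb ratio, and 1 without ERbetaKO-labelled female 1 and male 1 or with only the groups compared. Leaving out 1 array gave 0 to 6 list calls in ERalphaKO-labelled arrays and 1 to 6 in ERbetaKO-labelled arrays, and 2 to 3 and 1 to 3 neighbour calls. The number of list calls thus changed with the array left out. In ERalphaKO-labelled arrays it was 0 without ERalphaKO-labelled male 2, and 1 without ERalphaKO-labelled female 3 or wild type male 3. In ERbetaKO-labelled arrays it was 1 without ERbetaKO-labelled female 3, male 1 or male 2 or wild type male 2. With the replicate number as a block, the list calls in ERbetaKO-labelled were 3. Deviations from the group mean were correlated between arrays of different groups. Same-numbered arrays (45 pairs) had r from -0.39 to 0.451, with a median of 0.00858. Arrays with different numbers (90 pairs) had r from -0.439 to 0.463, with a median of -0.00359. With so wide a spread in both, the comparison cannot tell whether same-numbered arrays were handled together. The cause of these shifts was not tested. The number of arrays and signals near the filter limit the weakest probe sets.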
